A study of Mus musculus with 10 samples.

Results

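Blood stem cells live beside stromal cells that supply growth factors, adhesion molecules and metabolic signals. A group of 10 such niche factors other than chemokines were taken by gene symbol: Kitl, Angpt1, Vcam1, Il7, Thpo, Csf2, Csf3, Flt3l, Lepr and Angptl4. Of these 10 genes, 8 had 19 probe sets of their own among the 45101 probe sets of the array. Thpo had no probe set listed, and Flt3l had only 1 probe set, which the annotation shares with a ribosomal protein gene, so neither gene has a value here. In the whole series 18194 genes had a probe set of their own.

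RNA from osteoblasts, which form bone, was hybridised to 10 one-colour Affymetrix arrays of mouse genes. Of these, 3 arrays came from mice with constitutively expressed β-catenin in osteoblasts, called β-catenin active below, 3 from mice with FoxO1 deleted in osteoblasts, and 4 from wild-type mice. All were 2 to 3 days old, on a background recorded as C5BL6, with gender recorded as indeterminate. The Cre driver, the alleles and the genotype of any Cre control are not given in the sources used here, and it is not recorded if each sample was 1 animal, a pool or a culture. The p-values below thus reflect the variation among these particular samples, part or all of which may be technical. The protein β-catenin is the nuclear effector of canonical Wnt signalling, and FoxO1 is a forkhead transcription factor restrained by insulin signalling. The series asks what each lesion in the osteoblast does to gene expression, and the comparisons below ask whether the niche factors were among the genes it altered.

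The factors act by different routes. Kitl, stem cell factor, binds the receptor Kit on blood stem and progenitor cells, and mesenchymal stromal and endothelial cells are its known sources in bone marrow. Angpt1, angiopoietin 1, is a ligand of the receptor Tek on endothelial and stem cells. Vcam1 holds integrin-bearing blood cells to stroma and endothelium. Il7 is a growth factor of B and T cell precursors, Thpo of stem cells and megakaryocytes, Csf2 and Csf3 of granulocytes and macrophages, and Flt3l of lymphoid precursors and dendritic cells. Lepr, the leptin receptor, marks the marrow stromal cells known as a source of Kitl in adult mice. Angptl4 is a secreted inhibitor of lipoprotein lipase that responds to fatty acids, fasting and low oxygen.

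Signals are the deposited log2 MAS5 values, in which a step of 1 is a doubling, and MAS5 is Affymetrix's summary of the probes of a probe set. The table's median was 7.15 and its 75th percentile 9.06. A probe set entered the gene test if the third-highest of its 10 values was above that median and it named 1 gene. A gene was represented by its probe set with the highest mean. This left 11357 genes, with 5 of the members: Kitl, Angpt1, Vcam1, Lepr and Angptl4. Of the members' 19 probe sets 13 passed, and all 4 probe sets of Il7, Csf2 and Csf3 stayed below the median on every array. A second fit on all 45101 probe sets gave the dropped ones a value. Both used limma, with all arrays in 1 fit and 1 mean per genotype. Benjamini-Hochberg adjustment ran over the 11357 genes in the first and the 45101 probe sets in the second, at a threshold of 0.05.

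Proximal promoters show how differently the members' genes begin. Windows from 250 bases before to 50 after the start of transcription were matched for 5 members, Kitl, Csf2, Lepr, Thpo and Flt3l, in 7 windows of RefSeq's GRCm38.p6 assembly. The other members are Angpt1, Vcam1, Il7, Csf3 and Angptl4. The windows of Kitl, chr10:100015571-100015870 on the plus strand, and Csf2, chr11:54249850-54250149 on the minus strand, are shown because each has a single start in the table, and Kitl passed the filter on signal while Csf2 did not. They are written 5′ to 3′, and capitals mark CG dinucleotides.
Kitl: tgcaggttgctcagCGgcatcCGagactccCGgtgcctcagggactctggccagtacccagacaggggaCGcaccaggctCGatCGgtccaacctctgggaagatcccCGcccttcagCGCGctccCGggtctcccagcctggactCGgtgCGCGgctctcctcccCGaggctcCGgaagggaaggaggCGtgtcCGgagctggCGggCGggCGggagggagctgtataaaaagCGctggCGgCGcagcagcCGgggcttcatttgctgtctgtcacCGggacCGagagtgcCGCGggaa
Csf2: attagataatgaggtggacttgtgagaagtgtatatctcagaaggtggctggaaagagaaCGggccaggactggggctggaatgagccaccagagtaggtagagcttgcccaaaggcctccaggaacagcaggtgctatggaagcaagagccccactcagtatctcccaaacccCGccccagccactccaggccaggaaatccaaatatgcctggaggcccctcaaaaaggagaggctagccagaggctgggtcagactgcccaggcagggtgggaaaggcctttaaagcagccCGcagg
The Kitl window held 28 CG dinucleotides and 68.7% G and C, and 14.2% of the 32851 windows in the table had at least as many CG. The Csf2 window held 3 and 56.7% G and C, and 31.4% of windows had at most 3. The median window had 7 CG and 52.7% G and C. Member windows not shown held 5 and 13 CG for Thpo, 12 for Flt3l, and 18 and 13 for Lepr, so the 2 shown are the extremes of the 7. A link between CG count and signal was not tested. The T-cell factor motif through which β-catenin acts, searched as CTTTGAA or CTTTGAT, and the forkhead motif GTAAACA were looked for on both strands. None of the 7 windows held either one. Over all windows 8.65% held a T-cell factor motif and 3.65% the forkhead motif, and neither absence bears on binding elsewhere.

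No niche factor passed the test in any comparison. Between β-catenin active and wild-type osteoblasts 0 of the 5 members and 0 of the 19 probe sets passed, against 0.784% of all genes and 0.186% of all probe sets. Between FoxO1-deleted and wild-type osteoblasts the members' counts were 0 and 0, against 0.0264% of genes and 0.00443% of probe sets. Between β-catenin active and FoxO1-deleted osteoblasts they were again 0 and 0, against 0.669% of genes and 0.206% of probe sets. With so few genes called among all genes, 0 of 5 is near the background. At an unadjusted limma p under 0.05 the members counted 1, 0 and 2 in these 3 comparisons, against 12.1%, 7.83% and 8.03% of all genes. The median log2 difference of the 5 members was 0.19, -0.01 and 0.17, beside 0.005, 0 and 0.0033 for all genes tested.

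Kitl was the member whose β-catenin active and wild-type arrays stood apart. Its brightest probe set, 1415855_at, read 10.45, 10.66 and 10.56 on the β-catenin active arrays, 10.29, 10.55 and 9.88 on the FoxO1-deleted arrays, and 10.24, 10.16, 10.12 and 10.23 on the wild-type arrays. All 3 β-catenin active values lay above all 4 wild-type values, which sat within a narrow band, while the FoxO1-deleted arrays ran from the lowest value of the series to one as high as β-catenin active. The β-catenin active minus wild type difference was 0.37 ± 0.13 (SE) on the log2 scale, a 1.29-fold higher signal (95% interval 1.05 to 1.58), with an unadjusted p of 0.0185 and a limma adjusted p of 0.273. It was the single member without overlap in that comparison, where 14.0% of all genes had none. Because these are bulk samples, more cells of a type and more RNA per cell cannot be told apart.

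The other Kitl probe sets gave smaller differences. Probe set 1448117_at read 8.62, 9.06 and 8.37 on β-catenin active arrays, 8.64, 8.76 and 8.29 on FoxO1-deleted arrays, and 8.80, 8.40, 8.39 and 8.58 on wild-type arrays. Its β-catenin active minus wild type difference was 0.14 ± 0.18, and that of 1426152_a_at was 0.16 ± 0.18. The dim 1415854_at, which did not pass the filter, differed by 0.06 ± 0.34. All 4 probe sets thus had a positive sign, and 3 of the 4 had overlapping arrays. With the mean of the 3 kept probe sets in place of the brightest one, the Kitl difference was 0.22 with an adjusted p of 0.560.

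Against the FoxO1-deleted arrays, Kitl was 0.32 ± 0.14 log2 units higher in β-catenin active osteoblasts, with a 95% interval from 0.002 to 0.63 and an adjusted p of 0.616. That value rested on FoxO1-deleted array 3, the lowest of all 10 arrays in 3 of the 4 Kitl probe sets, and without it the difference was 0.14. FoxO1-deleted minus wild type was 0.05 ± 0.13 (95% interval -0.24 to 0.35, adjusted p 0.940). The order of the means was β-catenin active at 10.56 ± 0.11 (SD, n = 3), FoxO1 deleted at 10.24 ± 0.34 (n = 3) and wild type at 10.19 ± 0.06 (n = 4), and no neighbours in that order differed after adjustment by limma.

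**Figure D1:**
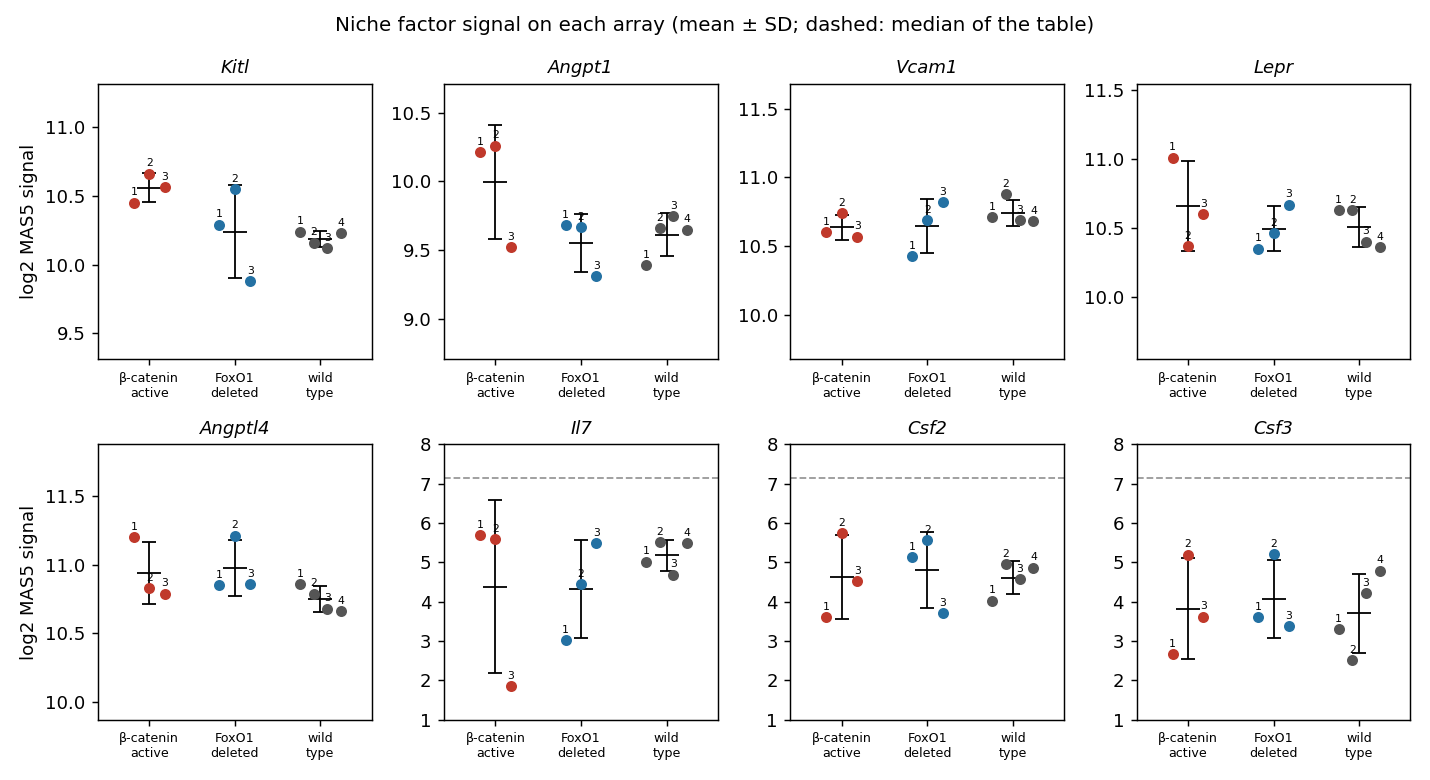
Log2 MAS5 signal of the 8 niche factors with a probe set of their own, each by its brightest probe set, on β-catenin active, FoxO1-deleted and wild-type arrays. Points are arrays with their numbers, and bars are the mean ± SD (n = 3, 3 and 4). The dashed line is the table's median of 7.15, shown where it falls in range, and Il7, Csf2 and Csf3 lie wholly below it. Kitl separates β-catenin active from wild type, with 10.45 as the lowest β-catenin active value.

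Angpt1 had values as large but more scattered. Probe set 1439066_at read 10.21, 10.26 and 9.52 on β-catenin active arrays, 9.68, 9.67 and 9.31 on FoxO1-deleted arrays, and 9.39, 9.66, 9.75 and 9.65 on wild-type arrays. Arrays 1 and 2 of β-catenin active were the highest of the series, and array 3 lay among the wild-type values. The β-catenin active minus wild type difference was 0.38 ± 0.18 (95% interval -0.01 to 0.77) with an adjusted p of 0.420. Without β-catenin active array 3 it was 0.62, with an adjusted p of 0.0997, and without array 2 it was 0.25.

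The second Angpt1 probe set, 1421441_at, ran the same way at a lower signal. It read 7.82, 7.98 and 7.38 on β-catenin active arrays, 7.37, 6.77 and 6.54 on FoxO1-deleted arrays, and 7.07, 7.18, 7.03 and 7.39 on wild-type arrays. The β-catenin active values lay above all FoxO1-deleted values but overlapped the wild-type values. Between β-catenin active and FoxO1 deleted the difference was 0.83 ± 0.26 (unadjusted p = 0.00677, limma adjusted p 0.489), and β-catenin active minus wild type was 0.56 ± 0.24 (adjusted p 0.555).

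In the gene test Angpt1 differed by 0.44 ± 0.19 between β-catenin active and FoxO1-deleted osteoblasts (95% interval 0.03 to 0.86, unadjusted p = 0.0392, limma adjusted p 0.584), and by -0.06 ± 0.18 between FoxO1-deleted and wild-type osteoblasts (-0.45 to 0.33, adjusted p 0.951). The first of these was 0.68 without β-catenin active array 3 and 0.26 with array weights. Here the gene's arrays overlapped. In that β-catenin active and FoxO1-deleted comparison 0 of 5 members had arrays that did not overlap, against 9.54% of all genes. FoxO1-deleted array 3 was the lowest array in both Angpt1 probe sets, as in most Kitl ones, and β-catenin active array 2 was the highest in both, and in 3 of 4 for Kitl.

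Vcam1 had the narrowest intervals and its differences had a negative sign. Its brightest probe set, 1448162_at, read 10.60, 10.74 and 10.57 on β-catenin active arrays, 10.43, 10.69 and 10.82 on FoxO1-deleted arrays, and 10.71, 10.88, 10.69 and 10.68 on wild-type arrays. The 3 genotypes overlapped. Between β-catenin active and wild type the difference was -0.10 ± 0.10 (95% interval -0.33 to 0.12, adjusted p 0.760), and FoxO1 deleted minus wild type was -0.09 ± 0.10 (-0.32 to 0.13, adjusted p 0.844). The fold intervals, 0.797 to 1.09 and 0.803 to 1.09, leave out any doubling or halving of the signal. The other Vcam1 probe sets differed by -0.14 ± 0.11 and -0.26 ± 0.17 between β-catenin active and wild type, so all 3 of 3 had a negative sign there, and 2 of 3 did between FoxO1 deleted and wild type.

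Lepr, the stromal receptor of the group, read 11.01, 10.37 and 10.60 on β-catenin active arrays, 10.35, 10.46 and 10.67 on FoxO1-deleted arrays, and 10.63, 10.63, 10.40 and 10.36 on wild-type arrays at 1456156_at. β-Catenin active array 1 was the highest and the rest were intermixed. The difference from wild type was 0.155 ± 0.15 in β-catenin active osteoblasts (95% interval -0.16 to 0.47, adjusted p 0.746) and -0.01 ± 0.15 in FoxO1-deleted osteoblasts (-0.33 to 0.31, adjusted p 0.990). Without β-catenin active array 1 the first of these was -0.02. The other 3 Lepr probe sets differed from wild type by 0.19 ± 0.14, 0.05 ± 0.19 and, for one below the filter, -0.27 ± 0.47 in β-catenin active osteoblasts, none past the test.

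Angptl4 values had a positive sign against wild type in both FoxO1-deleted and β-catenin active osteoblasts. Probe set 1417130_s_at read 11.20, 10.83 and 10.79 on β-catenin active arrays, 10.85, 11.21 and 10.86 on FoxO1-deleted arrays, and 10.86, 10.79, 10.68 and 10.66 on wild-type arrays. Array 1 of β-catenin active and array 2 of FoxO1 deleted stood above the rest, and the others overlapped the upper wild-type values. FoxO1 deleted minus wild type was 0.23 ± 0.12 (95% interval -0.04 to 0.49, unadjusted p = 0.0915 and adjusted p 0.665 by limma), and 0.11 without FoxO1-deleted array 2. In that comparison 0 of 5 members had arrays that did not overlap, against 9.03% of all genes. For β-catenin active minus wild type the value was 0.19 ± 0.12 (-0.08 to 0.46, adjusted p 0.589), and 0.0625 without β-catenin active array 1. The second probe set, 1453410_at, above the table's median on 4 of the 10 arrays, differed from wild type by 0.17 ± 0.37 in FoxO1-deleted and by 0.02 ± 0.37 in β-catenin active osteoblasts.

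**Figure D2:**
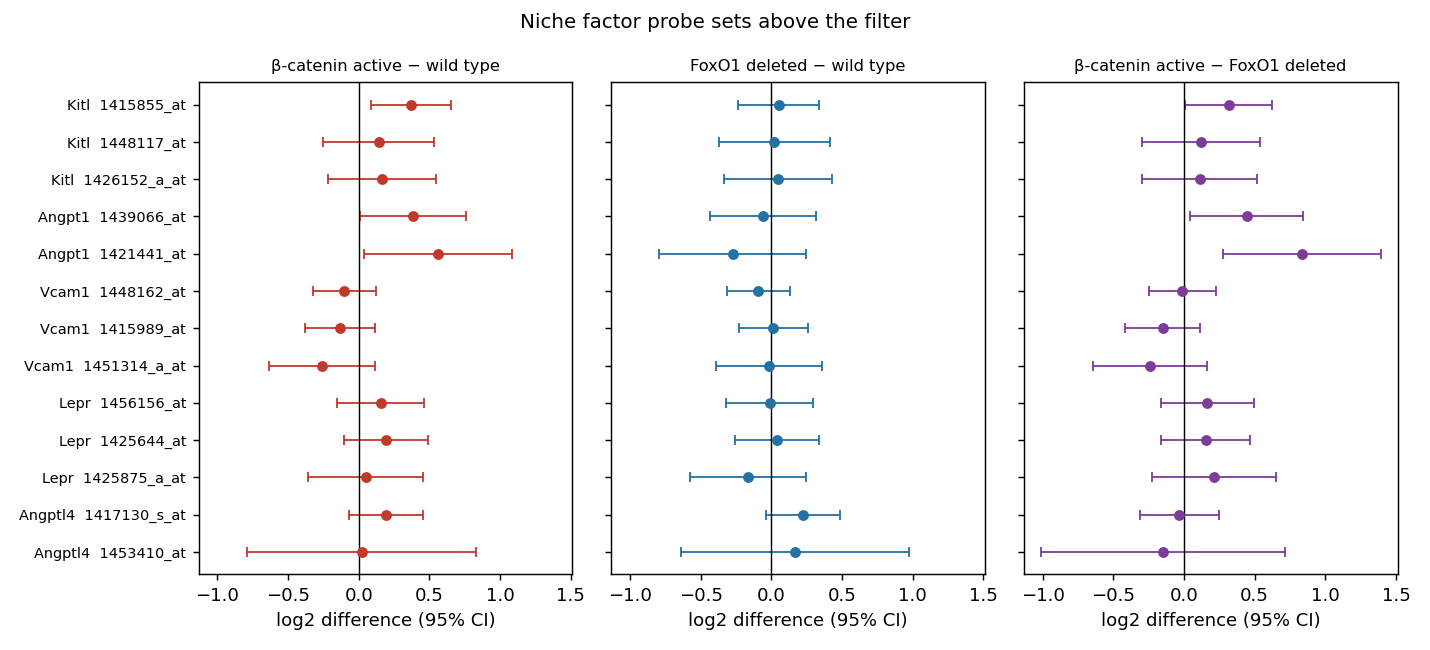
Log2 differences with 95% intervals for the 13 niche factor probe sets above the filter, from the fit on all probe sets, in 3 panels: β-catenin active minus wild type, FoxO1 deleted minus wild type, and β-catenin active minus FoxO1 deleted. The line marks 0. The intervals are not adjusted for the number of probe sets, and no adjusted p was under 0.05. Above 0 lie 10, 7 and 8 of the 13 differences in the 3 panels, in that order, and a gene can have several probe sets. In the gene test 51.3%, 50% and 50.3% of all genes were positive.

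The cytokine members were dim. Il7 read 5.70, 5.60 and 1.86 on β-catenin active arrays, 3.03, 4.45 and 5.49 on FoxO1-deleted arrays, and 5.02, 5.51, 4.69 and 5.50 on wild-type arrays at 1436861_at. The 3 genotypes overlapped, with the widest spread in β-catenin active, and the differences from wild type were -0.79 ± 0.89 and -0.86 ± 0.89 for β-catenin active and FoxO1 deleted. The second Il7 probe set, 1422080_at, read 2.10, 5.05 and 4.52 on β-catenin active arrays, 0.73, 1.69 and 1.94 on FoxO1-deleted arrays, and 4.11, 4.17, 3.21 and 1.23 on wild-type arrays. Here the β-catenin active and FoxO1-deleted arrays did not overlap (2.44 ± 1.00, adjusted p 0.703), at a level where signals vary by several log2 units within a genotype. In that comparison 2 of the 19 member probe sets had no overlap. The share over all probe sets was not counted, and in the gene test it was 9.54% of genes.

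Csf2, which encodes GM-CSF, read 3.61, 5.75 and 4.53 on β-catenin active arrays, 5.14, 5.57 and 3.71 on FoxO1-deleted arrays, and 4.03, 4.96, 4.57 and 4.87 on wild-type arrays. Csf3, which encodes G-CSF, read 2.66, 5.20 and 3.62 on β-catenin active arrays, 3.60, 5.22 and 3.39 on FoxO1-deleted arrays, and 3.30, 2.52, 4.22 and 4.79 on wild-type arrays. Genotypes overlapped for both. The 95% intervals of the β-catenin active over wild-type fold ran from 0.393 to 2.62 for Csf2 and from 0.326 to 3.62 for Csf3, so a doubling of either was not detectable with these arrays.

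The genes with the array pattern most like a member's were taken for Kitl, Angpt1 and Angptl4, by Pearson correlation over the 10 arrays among all genes tested. For Kitl these were She (r = 0.958, Spearman's rho = 0.948), Serinc1 (r = 0.940, rho = 0.963) and Phldb2 (r = 0.920, rho = 0.830). She read 9.33, 9.49 and 9.36 on β-catenin active arrays, 9.17, 9.38 and 8.90 on FoxO1-deleted arrays, and 9.21, 9.17, 8.96 and 9.08 on wild-type arrays, with the same FoxO1-deleted arrays at top and bottom as for Kitl. For Angpt1 they were 1500011B03Rik (r = 0.901, rho = 0.770), Carns1 (r = 0.889, rho = 0.827) and Sav1 (r = 0.888, rho = 0.733). For Angptl4 they were Neat1 (r = 0.960, rho = 0.709), Zfp638 (r = 0.956, rho = 0.768) and Zscan26 (r = 0.951, rho = 0.795). These are descriptions of 10 arrays that share genotypes and, among the wild type, form closely similar pairs.

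Of 17 genes listed as receptors and partners of the members, 11 were tested and 0 passed in any comparison. Their median difference was 0.11 for β-catenin active minus wild type and -0.03 for FoxO1 deleted minus wild type. Kit, the receptor of Kitl, read 8.27, 9.02 and 8.51 on β-catenin active arrays, 8.06, 8.03 and 8.24 on FoxO1-deleted arrays, and 8.10, 8.17, 7.83 and 7.81 on wild-type arrays. The β-catenin active arrays were above all others, at 0.62 ± 0.18 over wild type (limma adjusted p 0.166) and 0.49 ± 0.20 over FoxO1 deleted (adjusted p 0.538). Gpihbp1, which anchors lipoprotein lipase to capillary endothelium, was 0.48 ± 0.12 higher in β-catenin active than in wild-type osteoblasts (adjusted p 0.0932) and 0.32 ± 0.12 higher in FoxO1-deleted than in wild-type osteoblasts (adjusted p 0.585), with no overlap in either. Flt3, Il7r and Csf3r were among the listed genes that were not tested.

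Of 27 other secreted or adhesive niche signals, 14 were tested and 0 passed in any comparison, with a median of 0.09 for β-catenin active minus wild type and 0.14 for FoxO1 deleted minus wild type. Igf1, a growth factor of bone and blood cells, differed by 0.41 ± 0.12 between β-catenin active and wild type (adjusted p 0.171), and its arrays overlapped. Cdh2, N-cadherin, an adhesion molecule of osteoblasts, differed by -0.38 ± 0.15 (adjusted p 0.336). FoxO1 deleted minus wild type was 0.21 ± 0.12 for Igf1 and -0.09 ± 0.15 for Cdh2.

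**Figure D3:**
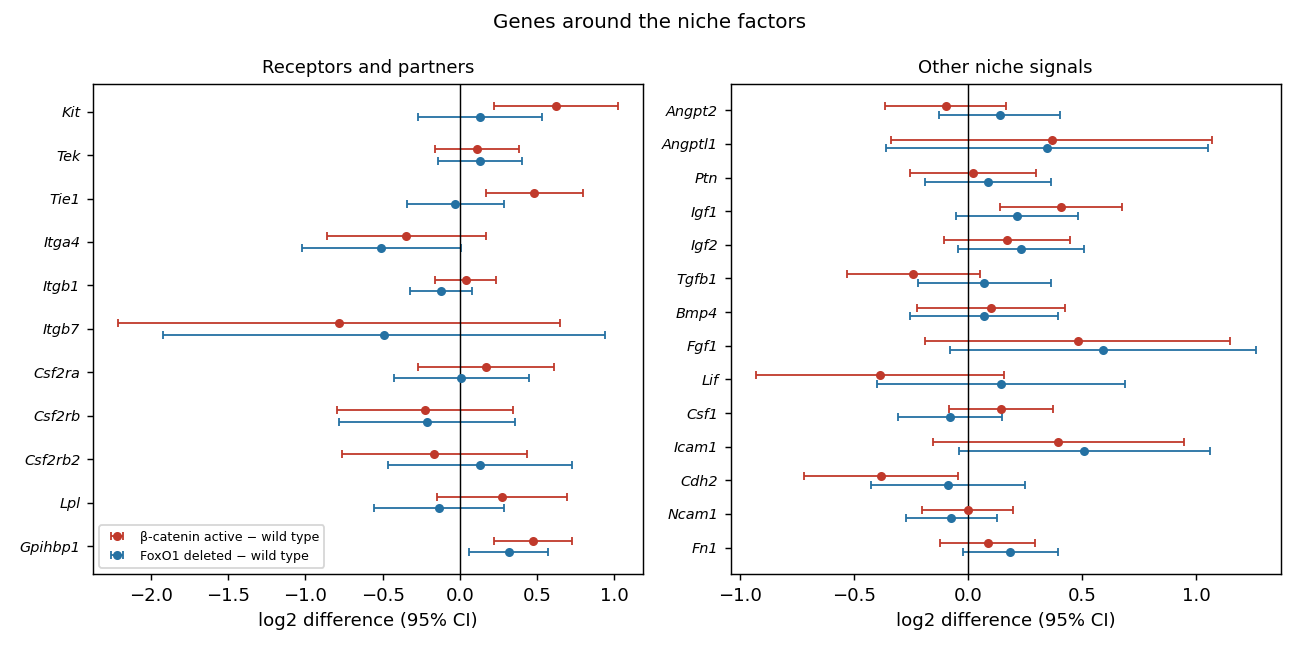
Log2 differences with 95% intervals for the 11 tested receptors and partners of the niche factors and the 14 other tested niche signals, from the gene test. Red points are β-catenin active minus wild type, blue points FoxO1 deleted minus wild type, and the line marks 0. No adjusted p was under 0.05, and Kit, Tie1, Gpihbp1 and Igf1 have red intervals above 0 while that of Cdh2 lies below 0.

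A further 4 lists covered the settings in which the members are known to be regulated. All 15 markers of stromal cells known for making niche factors were tested, and 1 passed, for β-catenin active against each other genotype. Of all genes 0.784% passed against wild type and 0.669% against FoxO1 deleted. Nt5e, the ectonucleotidase CD73 of mesenchymal cells, read 10.83, 10.76 and 10.91 on β-catenin active arrays, 9.88, 9.48 and 10.02 on FoxO1-deleted arrays, and 9.77, 9.86, 9.99 and 9.85 on wild-type arrays. It rose by 0.97 ± 0.12 over wild type (limma adjusted p 0.00437) and by 1.04 ± 0.13 over FoxO1 deleted (adjusted p 0.00384), with no overlap. The list's median was 0.22 and 0.11 in those comparisons, and 13 and 12 of the 15 were positive, against 51.3% and 50.3% of all genes. Between FoxO1 deleted and wild type the list's median was 0.13 and 10 of the 15 were positive, against 50% of all genes. The other Nt5e probe sets, both dim and below the filter, disagreed in sign against wild type: 1422974_at differed by 1.93 ± 0.51 and 1459023_at by -1.40 ± 0.68.

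Of 12 lipid-sensing and fasting genes regulated with Angptl4, 8 were tested and 0 passed. Pdk4, a kinase that turns cells from glucose to fatty acid use, differed by 0.73 ± 0.17 between β-catenin active and wild type without overlap (adjusted p 0.0898), and by -0.02 ± 0.17 between FoxO1 deleted and wild type. Fabp4, a fatty acid binding protein, differed by 0.34 ± 0.15 between β-catenin active and wild type (adjusted p 0.413). Of 10 hypoxia response genes 7 were tested. Between β-catenin active and wild type their median was 0.06, with 2 of 7 negative and a range from -0.54 to 0.83. Only Ndrg1 passed, against 0.784% of all genes, and it rose by 0.83 ± 0.14 in β-catenin active over wild-type osteoblasts (limma adjusted p 0.0235). That call was lost on leaving out any 1 of the 4 wild-type arrays (adjusted p 0.0608 to 0.0832, difference 0.79 to 0.86), and its 4 other probe sets differed by 0.58 to 1.06.

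Of 12 inflammatory genes regulated with Vcam1, Csf2 and Csf3, 9 were tested. Between β-catenin active and wild type 1 passed, against 0.784% of all genes. Ptgs2, the inducible prostaglandin synthase, read 8.30, 7.79 and 7.62 on β-catenin active arrays, 6.44, 7.21 and 5.43 on FoxO1-deleted arrays, and 5.27, 5.30, 5.94 and 4.99 on wild-type arrays. It rose by 2.53 ± 0.42 over wild type (limma adjusted p 0.0207), where the wild-type signals all lay below the table's median. Its β-catenin active values were the highest of the series, and it passed the filter only through them. Its entry to the gene test thus depended on the group in which it was high. In the fit on all probe sets, which had no filter, its limma adjusted p was 0.0312. The second Ptgs2 probe set, 1417263_at, below the filter, differed by 2.27 ± 1.12 with overlapping arrays (limma adjusted p 0.625). In the gene test the Ptgs2 call was lost without wild-type array 1, 2 or 4 or without any 1 of the β-catenin active arrays (adjusted p 0.0621 to 0.106). The median of the 9 genes was 0.15, and neither Vcam1 nor the dim Csf2 and Csf3 passed beside it.

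The osteoblast label was checked against 14 markers, of which 9 were tested, among them Col1a1, Alpl, Ibsp and Dmp1. Their mean signal was 13.29 to 13.57 on β-catenin active arrays, 13.32 to 13.51 on FoxO1-deleted arrays and 13.24 to 13.46 on wild-type arrays. Skeletal muscle markers, 10 of 10 tested, were also bright, at 12.2 to 13.7 over all arrays. Ctnnb1 differed by -0.03 ± 0.09 between β-catenin active and wild type, and Foxo1 by -0.17 ± 0.11 between FoxO1 deleted and wild type, with overlapping arrays. Where these probe sets lie relative to the alleles is not given, so they check neither label. Xist and Eif2s3y, used here as markers of sex, split the arrays. Xist was high and Eif2s3y low on FoxO1-deleted arrays 2 and 3 and wild-type arrays 3 and 4. The reverse held on all other arrays, which include every β-catenin active one. Sex by these markers was thus unbalanced between the genotypes, and the main fit had no term for it. Wild-type arrays 1 and 2 (r = 0.990) and 3 and 4 (r = 0.989) were closer to each other than to the other pair (r = 0.971 to 0.973). These pairs fell on opposite sides of the Xist split.

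The mean of the endothelial markers differed between β-catenin active and wild-type arrays in the same direction as Kitl, Angpt1 and Kit. That direction was not particular to them. The median difference was 0.37 for endothelial, 0.68 for chondrocyte and 0.24 for fibroblast and smooth muscle markers. Medians were negative for neutrophil, erythroid, B cell, megakaryocyte and osteoclast markers and positive for the other marker lists. Among the members, Vcam1 had a negative sign. The 12 endothelial markers, all tested, averaged 9.73 to 9.87 on β-catenin active arrays, 9.58 to 9.64 on FoxO1-deleted arrays and 9.47 to 9.52 on wild-type arrays. Between β-catenin active and wild type 10 of the 12 had a positive sign, against 51.3% of all genes. Cldn5 (-0.07 ± 0.11) and Vwf (-0.11 ± 0.11) had a negative one. None of the 12 passed the adjusted test. In that comparison 7 had an unadjusted limma p under 0.05 and 7 had no overlap, against 12.1% and 14.0% of all genes. Stem and progenitor markers, 7 of 10 tested, spanned 8.77 to 8.94 on β-catenin active arrays, 8.69 to 8.82 on FoxO1-deleted arrays and 8.50 to 8.75 on wild-type arrays. Kit is itself 1 of those 7, and the other 6 averaged 8.81 to 8.97 on β-catenin active arrays, 8.77 to 8.96 on FoxO1-deleted arrays and 8.55 to 8.90 on wild-type arrays, which overlap. The part of these cells in the Kitl, Angpt1 and Kit values was not tested.

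Neutrophil markers, 6 of 10 tested, averaged 7.88 to 8.66 on β-catenin active arrays, 7.09 to 9.96 on FoxO1-deleted arrays and 10.11 to 11.27 on wild-type arrays, and the early granule genes Elane, Prtn3 and Ctsg were not tested. None of the 6 passed the adjusted test in any comparison. Against wild type their median difference was -2.53 in β-catenin active and -2.08 in FoxO1-deleted osteoblasts. All 6 had an unadjusted limma p under 0.05 in both, against 12.1% and 7.83% of all genes. Arrays did not overlap for 6 and 4 of them, against 14.0% and 9.03% of all genes. Erythroid markers, 6 of 8 tested, averaged 6.93 to 7.68, 7.31 to 8.87 and 8.35 to 9.41 on β-catenin active, FoxO1-deleted and wild-type arrays. Chondrocyte markers, 12 of 12 tested, averaged 10.17 to 10.45, 10.10 to 11.49 and 9.52 to 9.96 on the same arrays. Of 12 fibroblast and smooth muscle markers, all tested, 2 passed between β-catenin active and wild type, against 0.784% of all genes. They were Thy1 (0.91 ± 0.17, limma adjusted p 0.0368) and S100a4 (0.42 ± 0.08, adjusted p 0.0384). S100a4 also passed between β-catenin active and FoxO1 deleted (0.44 ± 0.09, limma adjusted p 0.0459), where 0.669% of all genes did. That list averaged 11.84 to 12.11, 11.78 to 11.95 and 11.52 to 11.90 on β-catenin active, FoxO1-deleted and wild-type arrays. Both calls against wild type were lost on leaving out any 1 wild-type array (adjusted p 0.0621 to 0.119), and the S100a4 call against FoxO1 deleted was lost without any 1 array other than β-catenin active array 2 (0.0622 to 0.182). Without any 1 β-catenin active array the Thy1 call was lost as well (adjusted p 0.0624 to 0.123), and the S100a4 call against wild type was lost without β-catenin active array 1 or 3 or FoxO1-deleted array 1 (0.0546 to 0.145). The part of these cells in the niche factor values was not tested either.

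**Figure D4:**
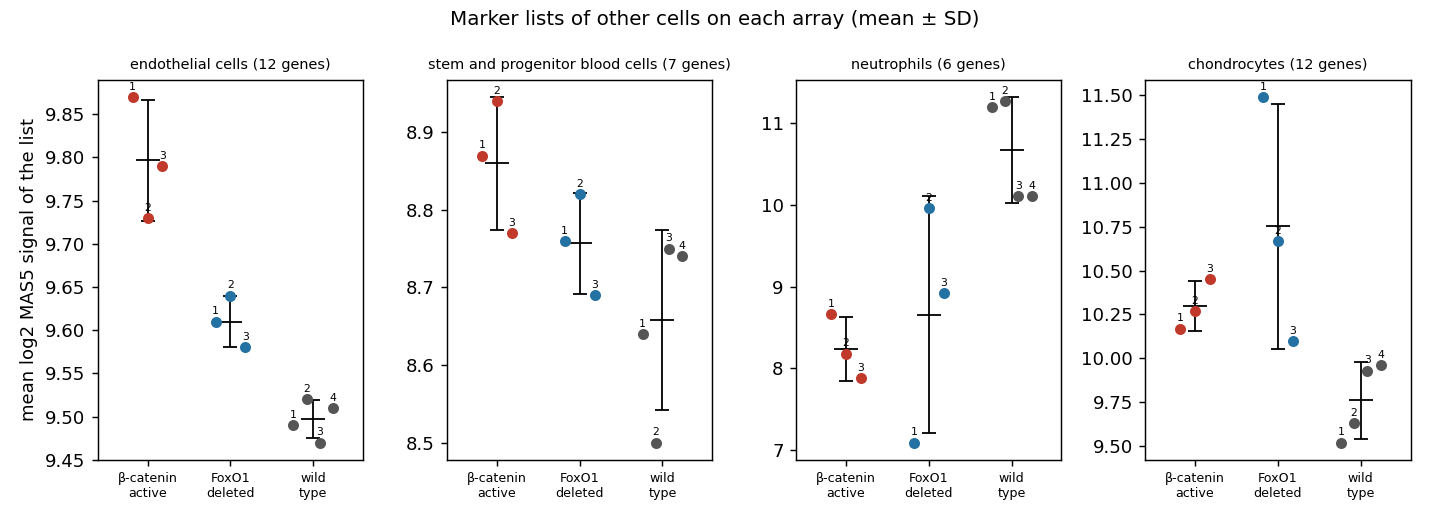
Mean log2 MAS5 signal of 4 marker lists on each array of the β-catenin active, FoxO1-deleted and wild-type groups, with numbered points for arrays and bars for mean ± SD (n = 3, 3 and 4). Each panel has its own axis, which does not start at 0. The 12 endothelial markers lie at 9.73 or above on β-catenin active arrays and at 9.52 or below on wild-type arrays, and the 6 neutrophil markers lie at 10.11 or above on wild-type arrays. The stem and progenitor panel includes Kit.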

How the data were processed

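Biotin-labelled cRNA was made from 500 ng RNA per sample, per the labels' protocols. The authors deposited log2 values of MAS5 signal, the submitters' processing notes naming MAS5 with no version number. The log base was inferred from the deposited values: read as log2, the mean linear signal after trimming 2% at each end was close to 500 on every array. No floor was applied. Gene names came from the platform annotation, in which 34958 probe sets had 1 gene, 932 several and 9211 none.

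Differences were fitted with limma 3.58.1 in R 4.3.3 (lmFit, eBayes with a variance trend, two-sided, 7 residual degrees of freedom, no covariate), after a test on simulated data. The members and gene lists were chosen with earlier results of these data known. All members were named. From each gene list, every gene that passed was named, up to 4, or otherwise the 2 with the smallest p. The 3 most alike genes were named for the 3 members with the smallest p. Tie1, named in a caption, and the markers Thy1 and S100a4 were chosen after their values were seen.

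Same-numbered arrays of different genotypes did not deviate together: over 9 pairs the correlation of deviations ran from -0.287 to 0.290 and 2 were over 0.1, so the numbers were not taken as pairs. The number of arrays limits the precision. Alternatives covered the filter, normalization, probe set choice, variance model, an Xist term, averaged wild-type pairs and each array left out.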

Additional observations from a re-analysis of the deposited data

Results flagged for a closer look

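Among the 19 niche factor probe sets, the 4 wild-type arrays of each were screened for an array far from the rest by Dixon's ratio. Vcam1 at 1448162_at had wild-type array 2 at 10.88, against 10.68 to 10.71 on the other wild-type arrays, a ratio of 0.85, which is above the critical value at the 95% level. At that level chance flags about 1 in 20 groups.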

How the results depend on the processing

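No member passed the test under any of 25 settings (10 leaving out 1 array and 15 others), and no member probe set did under the 21 settings applied to them. Of 375 recomputed member differences 351 kept their sign and 24 did not. Those that turned had a main size of at most 0.17. FoxO1 deleted minus wild type turned to 0.0252 for Angpt1 with array weights, to 0.155 for Angpt1 on arrays with low Xist, and to 0.0292 for Lepr with array medians centred. β-Catenin active minus FoxO1 deleted turned to 0.09 for Angptl4 on arrays with low Xist, and for Vcam1 to 0.0012 with quantile normalization, 0.11 with array weights, 0.0347 with an Xist term and 0.21 on arrays with low Xist. The cause was not tested.

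Leaving out 1 array at a time gave these ranges. For β-catenin active minus wild type they were 0.32 to 0.42 for Kitl, 0.25 to 0.62 for Angpt1, -0.02 to 0.30 for Lepr and 0.0625 to 0.27 for Angptl4. For FoxO1 deleted minus wild type they were -0.10 to 0.23 for Kitl, -0.13 to 0.0625 for Angpt1, -0.18 to 0.015 for Vcam1, -0.10 to 0.06 for Lepr and 0.11 to 0.29 for Angptl4. For β-catenin active minus FoxO1 deleted they were 0.14 to 0.47 for Kitl, 0.31 to 0.68 for Angpt1, -0.12 to 0.0767 for Vcam1, -0.0083 to 0.31 for Lepr and -0.16 to 0.085 for Angptl4. The adjusted p of Kitl between β-catenin active and wild type ran from 0.0627, fitting only those arrays, to 0.857 with wild-type pairs averaged, and that of Angpt1 from 0.0997 to 0.952.

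With the replicate number as a replicate block the paired fit gave 0.38 for Kitl (adjusted p 0.449) and 0.40 for Angpt1 (adjusted p 0.600) between β-catenin active and wild type. It called 15, 0 and 22 genes in all, against 89, 3 and 76 without it, and 0 members. Over all settings these 3 counts ran from 9 to 175, 0 to 96 and 6 to 77, with 9 and 10 in the first for averaged wild-type pairs and the Xist term, and 175 on low-Xist arrays. The settings for the passing genes of the other lists and markers were chosen after seeing the data. Nt5e kept its call against wild type except with the Xist term (adjusted p 0.0581) and averaged wild-type pairs (0.110), and against FoxO1 deleted except with the Xist term (0.105) and on low-Xist arrays (0.0630). Ptgs2 lost its call under the replicate block (0.155), the Xist term (0.129) and averaged pairs (0.183), and Ndrg1 lost it under 7 settings other than leaving out arrays. Against wild type, Thy1 kept its call under 13 of 25 settings and S100a4 under 11, with adjusted p up to 0.299 and 0.337 with averaged pairs. Against FoxO1 deleted, S100a4 kept its call under 5 (adjusted p up to 0.627, with the Xist term).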
